A study of Mus musculus with 100 samples.

Results

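Otx2, Pou3f1, Utf1, Zic2, Zic5, Sall2, Foxd3 and Grhl2 are genes of formative and primed pluripotency, taken by symbol from a table of 25965 genes, in which all 8 were found. Of the 100 samples of the series, 18 RNA-seq libraries in 6 groups of 3 were analysed here: the induced pluripotent stem cell lines F KSR2 and F KSR4 (female) and M KSR3 and M KSR5 (male), TX 2i embryonic stem cells (ESCs) and female mouse embryonic fibroblasts (MEFs). Every cell was an F1 hybrid of a C57BL/6J (BL6) mother and a Mus musculus castaneus (CAST) father, so that reads over strain variants can be given to the maternal or the paternal allele. The KSR lines and the MEFs carry a doxycycline-inducible cassette of Oct4, Sox2, Klf4 and c-Myc, and the KSR lines were reprogrammed and kept in Knockout Serum Replacement (KSR) medium with LIF. The TX 2i ESCs are the TX1072 line, grown in serum medium with LIF and inhibitors of MEK and GSK3 (2i).

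Each KSR line is 1 picked colony, female and male lines came from different embryos, and TX 2i is 1 line of another origin in another medium. Embryo and sex therefore cannot be told apart between female and male lines, nor can medium and cell line between KSR-iPSCs and TX 2i ESCs. M KSR3 and M KSR5 are lines of 1 sex. Per the paper's methods, the KSR lines of each sex came from the same MEF batch, derived from single embryos of 1 progeny. The 3 libraries of a group are biological replicates of 1 line or culture, so p-values of fits with a mean per group measure the spread within lines.

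Mouse pluripotent cells pass from a naive state, as in the inner cell mass, through a formative state to the primed state of the late epiblast. The naive network is held by factors such as Nanog, Prdm14 and Tfcp2l1, and 2i culture stabilises it by blocking ERK signalling and activating Wnt signalling. On exit from the naive state, the homeodomain factor Otx2 and the POU factor Pou3f1 (Oct6) redirect Oct4 to new enhancers, Grhl2 keeps epithelial genes active, and the zinc-finger factors Zic2 and Zic5 act at enhancers of the epiblast and the neural plate. Foxd3 is a forkhead repressor and nucleosome-opening factor needed in the epiblast, Utf1 is a chromatin-bound protein restricted to pluripotent and germ cells, and Sall2 is a spalt-family zinc-finger factor also found in mesenchymal and neural tissue.

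In GRCm38, as the deposited table gives them, Otx2 lies at chr14:48657679-48667644 (minus strand), Sall2 at chr14:52311172-52328762 (minus), Zic5 at chr14:122456795-122465677 (minus) and Zic2 at chr14:122475435-122479852 (plus). Zic5 and Zic2 point away from each other across 9757 bases. Foxd3 lies at chr4:99656299-99658671 and Pou3f1 at chr4:124657646-124660655, Utf1 at chr7:139943789-139945112 and Grhl2 at chr15:37233036-37363569, all on the plus strand. The Grhl2 row carries the identifier of a neighbouring antisense gene, and was matched by symbol and coordinates. Within Grhl2 lie 3 annotated antisense genes, and the libraries were quantified by strand. The gene Gm23366 overlaps Foxd3 on the same strand, where strand cannot tell their reads apart.

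RefSeq promoter windows (GRCm38.p6) were at hand for 5 of the 8 genes, in 9 windows of 250 bases before a start site. They are shown for Foxd3, the member with the widest range between KSR-iPSC libraries, and for Otx2 and Utf1, both higher in KSR-iPSCs than in TX 2i ESCs, with every CpG in capitals and with annotated exon bases left off the Utf1 window.
Foxd3, chr4:99656049-99656298, plus strand: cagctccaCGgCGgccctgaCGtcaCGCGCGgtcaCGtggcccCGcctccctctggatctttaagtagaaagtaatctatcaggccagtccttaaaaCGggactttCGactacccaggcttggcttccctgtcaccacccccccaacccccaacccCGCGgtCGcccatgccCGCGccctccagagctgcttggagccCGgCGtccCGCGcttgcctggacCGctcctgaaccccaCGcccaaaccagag
Utf1, chr7:139943606-139943788, plus strand: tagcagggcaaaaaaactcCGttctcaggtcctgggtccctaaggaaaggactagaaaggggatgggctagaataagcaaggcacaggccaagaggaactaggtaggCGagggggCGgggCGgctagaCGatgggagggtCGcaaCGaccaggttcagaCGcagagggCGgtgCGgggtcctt
Otx2, chr14:48667645-48667894, minus strand: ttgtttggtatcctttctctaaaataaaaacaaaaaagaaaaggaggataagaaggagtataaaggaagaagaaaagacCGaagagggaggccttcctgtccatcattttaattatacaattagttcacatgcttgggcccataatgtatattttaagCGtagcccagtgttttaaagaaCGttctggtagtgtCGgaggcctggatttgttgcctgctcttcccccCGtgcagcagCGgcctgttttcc
The full windows held 21 CpGs at Foxd3, 14 at Utf1 and 6 at this Otx2 start, which lies inside the intron of a longer annotated Otx2 transcript. The median over 32851 mouse promoter windows of the same length was 6 CpGs. Of the letters searched on both strands, the GC box GGGCGG was found 4 times in the full Utf1 window, where 32.7% of all windows hold it, and in none of the other 8 windows. The OTX motif TAATCC was found in 1 of the 9 windows, at a downstream Otx2 start, with 6.25% of all windows holding it, and neither the octamer ATGCAAAT (1.6%) nor the Grainyhead motif AACCNGTT (1.79%) was found in any of the 9.

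The libraries held 13183036 to 17921280 reads on genes. Levels below are deposited log2 RPM (reads scaled to the library's total), which are not corrected for gene length, with a gene of 0 reads entered just under the value of 1 read. The core factors Pou5f1 (Oct4) and Sox2 were high in every pluripotent group, with group means of 9.76 to 10.36 and 8.73 to 9.31, and the MEFs had 0 reads of Pou5f1 in each library. Pou5f1 was lower in KSR-iPSCs than in TX 2i ESCs by 0.42 (adjusted p = 0.0231, limma), a call that 2 of the 3 fits without a TX 2i library lost. The 12 fibroblast markers summed to 22748 to 34850 RPM in MEFs and to 17.3 to 79.9 RPM in 14 of the 15 pluripotent libraries. M KSR5 replicate 3 stood at 182 RPM, or 0.667% of the MEF mean. F KSR4 replicate 2 had the lowest level of its line for 6 of the 8 members, by a median of 1.43 over the 8 (log2 difference -1.43), against -0.22 over all genes tested, of which it was the lowest for 45.3%. In bulk RNA, fewer cells with a transcript and less of it per cell cannot be told apart.

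**Figure D1:**
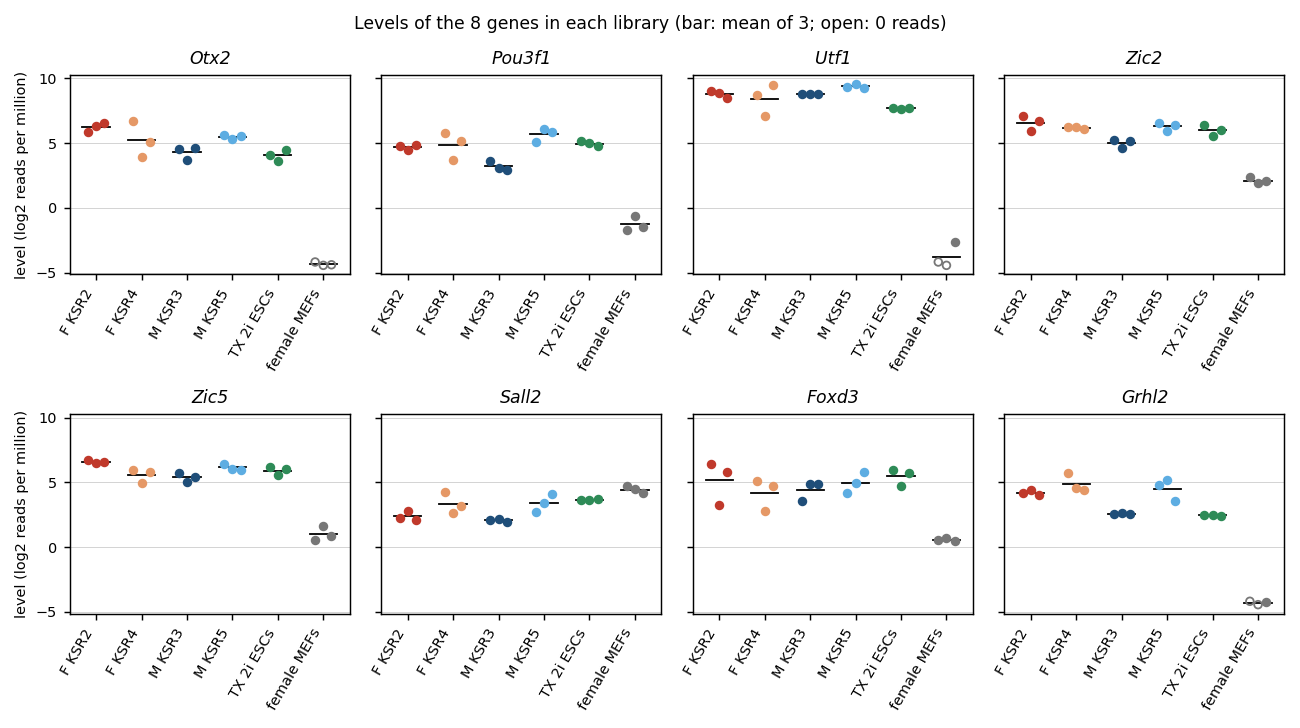
Level of each of the 8 genes in log2 RPM (y axis) in the 18 libraries, by group (x axis). Points are libraries, bars are means of 3 and open points had 0 reads. In 7 panels the MEFs lie far below the other groups, and in the Sall2 panel they have the highest mean.

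To see how far the genes separate pluripotent cells from fibroblasts, the 4 KSR lines together were set against female MEFs. The male lines came from male MEFs, which have no RNA-seq library here. For M KSR3 and M KSR5, sex and embryo therefore also differ from the MEFs. All 8 members passed the test (limma, Benjamini-Hochberg adjusted p under 0.05 over 14632 genes), where 74.3% of all genes did (41.8% higher, 32.5% lower). Of the 8, 7 were higher in KSR-iPSCs and 1, Sall2, was lower. For these 7 the 12 KSR-iPSC libraries all lay above the 3 MEF libraries, against 27.5% of all genes.

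Otx2 had 0 reads in each MEF library and 257 to 1928 reads in the KSR-iPSC libraries. With each MEF library put at its floor of 3 reads, Otx2 was at least 244-fold higher in KSR-iPSCs, and at least 120-fold higher in the lowest line, M KSR3. Utf1 had 0, 0 and 3 reads in MEFs and 2424 to 13882 in KSR-iPSCs, a ratio of summed RPM of 9109 with a 95% counting interval of 3117 to 44170. Grhl2 had 0, 0 and 1 reads in MEFs and 103 to 984 in KSR-iPSCs, a ratio of 1141 (205 to 45063). These 3 genes were thus at or near the limit of detection in fibroblasts, where 3 reads is the most that a library with a count of 0 allows.

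The other genes that were higher had a measurable level in MEFs. Pou3f1 stood at -1.71, -0.59 and -1.44 in MEFs and between 2.93 and 6.09 (median 4.79) in KSR-iPSCs, a log2 difference of 5.86 ± 0.34 (SE; adjusted p = 5.97e-11, limma). Zic2 stood at 2.36, 1.90 and 2.05 in MEFs against 4.64 to 7.07 (median 6.17), a difference of 3.92 ± 0.21 (adjusted p = 2.43e-11, limma). Zic5 was lower than its neighbour Zic2 in MEFs, at 0.55, 1.61 and 0.84, against 4.98 to 6.70 (median 5.97) in KSR-iPSCs, a difference of 4.94 ± 0.23 (adjusted p = 3.64e-12, limma). Foxd3 stood at 0.55, 0.71 and 0.45 in MEFs and spread from 2.78 to 6.42 (median 4.89) in KSR-iPSCs, a difference of 4.13 ± 0.56 (adjusted p = 3.67e-06, limma).

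Sall2 went the other way. It stood at 4.70, 4.46 and 4.17 in MEFs and at 1.96 to 4.24 (median 2.66) in KSR-iPSCs, a log2 difference of -1.64 ± 0.31 (adjusted p = 0.000113, limma), or 3.12-fold lower. F KSR4 replicate 1, at 4.24, lay above the lowest MEF library, so the groups overlapped. The M KSR5 library with the most fibroblast RNA had 4.14, and without it the difference was -1.73 (adjusted p = 4.17e-05, limma). With the mean of each line as the unit, the other 7 genes kept their call and Sall2 did not (adjusted p = 0.0552, limma).

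TX 2i ESCs were separated from MEFs by the same 7 genes, where 66.5% of all genes passed the test and 37.5% were higher in TX 2i ESCs. All 3 TX 2i libraries lay above the MEF libraries for the 7, as for 42.7% of all genes. The differences ran from 3.88 ± 0.27 for Zic2 (adjusted p = 1.15e-09, limma) to 11.47 ± 0.46 for Utf1 (adjusted p = 1.01e-12, limma). Otx2 was at least 101-fold higher than the floor of 3 reads. Sall2 was at 3.68, 3.61 and 3.74 in TX 2i ESCs, below all MEF libraries, as were 33.7% of all genes, with a difference of -0.77 ± 0.39 that did not pass (adjusted p = 0.0894, limma; 95% interval -1.58 to 0.05). It did under median-of-ratios scaling (-0.97, adjusted p = 0.0267, limma) and with voom (-0.73, adjusted p = 0.0499). Both pluripotent groups were compared with the same MEF libraries.

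Levels of different genes can be compared only per kilobase of exon (RPKM, with the union of annotated exons as the length). On this scale and over the mean of the 4 lines, Utf1 was the most abundant member in KSR-iPSCs, with 407 RPKM, followed by Zic2 (24.8), Foxd3 (14.3), Zic5 (13.4), Otx2 (11.5), Pou3f1 (7.98), Grhl2 (2.4) and Sall2 (1.5). The order from Foxd3 to Pou3f1 differed by line, with Otx2 (12.3) above Zic5 (10.3) and Foxd3 (9.83) in F KSR4 and Pou3f1 (13.8) above Otx2 (10.8) in M KSR5. In TX 2i ESCs the order was Utf1 (170), Zic2 (22.5), Foxd3 (20.5), Zic5 (12.6), Pou3f1 (8.19), Otx2 (4.04), Sall2 (2.36) and Grhl2 (0.645). In MEFs Sall2 led with 4.06 RPKM, before Zic2 with 1.5.

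The comparison of KSR-iPSCs with TX 2i ESCs asks whether lines kept without the 2 inhibitors hold more of the formative programme. Of the 8 members, 3 were higher in KSR-iPSCs (Otx2, Utf1 and Grhl2) and 1 was lower (Sall2), so 4 passed the test where 23.0% of all genes did (11% higher, 12.0% lower). The median difference over the 8 was 0.03, and over all genes tested it was -0.0045. Among the 8, the libraries did not overlap for Grhl2 alone, against 3.94% of all genes lying wholly above TX 2i ESCs in all 12 KSR-iPSC libraries. With the mean of each line as the unit, none of the 8 passed (limma, 4 lines against 1 value for TX 2i ESCs), and 42 of all genes tested did.

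Grhl2, a Grainyhead-family factor that opens chromatin at epithelial enhancers, showed the widest difference. Its levels were 2.52, 2.50 and 2.40 in TX 2i ESCs. F KSR2 had 4.15, 4.43 and 4.00, F KSR4 had 5.76, 4.55 and 4.42, and M KSR5 had 4.79, 5.20 and 3.54. In M KSR3 they were 2.58, 2.61 and 2.54, just above the TX 2i libraries. The log2 difference over the 4 lines was 1.57 ± 0.32, or 2.98-fold (adjusted p = 0.00185, limma), and it was called without any one library of either group. By line, the difference passed for F KSR2 at 1.72 ± 0.40, for F KSR4 at 2.44 ± 0.40 and for M KSR5 at 2.04 ± 0.40 (adjusted p = 0.00953, 0.000848 and 0.00197, limma), comparisons in which 12.8%, 15.4% and 18.2% of all genes passed. M KSR3, where 23.1% did, differed by 0.11 (adjusted p = 0.899, limma; 95% interval -0.75 to 0.96).

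Otx2 stood at 4.06, 3.66 and 4.45 in TX 2i ESCs. F KSR2 had 5.83, 6.33 and 6.54, F KSR4 had 6.73, 3.94 and 5.09, M KSR3 had 4.57, 3.72 and 4.61, and M KSR5 had 5.65, 5.29 and 5.58. Of the 12 KSR-iPSC libraries, 10 lay above all TX 2i libraries, and the other 2, F KSR4 replicate 2 and M KSR3 replicate 2, lay within their range. The log2 difference was 1.27 ± 0.38, or 2.41-fold (adjusted p = 0.0231, limma). The call was lost without TX 2i replicate 1 (adjusted p = 0.0801, limma) and without replicate 2 (0.136), and held without replicate 3 (0.0414). By line, F KSR2 differed by 2.18 ± 0.48 (adjusted p = 0.00681, limma) and M KSR5 by 1.45 ± 0.48 (0.0444), while the difference of 1.20 ± 0.48 in F KSR4 did not pass (adjusted p = 0.104, limma; 95% interval 0.18 to 2.22), nor did that of 0.25 ± 0.48 in M KSR3 (adjusted p = 0.771, limma; -0.77 to 1.26).

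Utf1, the most abundant of the 8, stood at 7.75, 7.67 and 7.68 in TX 2i ESCs. Of the 12 KSR-iPSC libraries, 11 lay above that, between 8.51 and 9.60, and F KSR4 replicate 2 lay below it at 7.07. The log2 difference was 1.15 ± 0.36, or 2.22-fold (adjusted p = 0.0288, limma), and it lost its call without any one of the TX 2i libraries (adjusted p = 0.0868 to 0.101, limma). M KSR5 was the only line whose own difference passed, at 1.71 ± 0.46 (adjusted p = 0.0147, limma). F KSR2 and M KSR3 had nearly the same difference as the pool, 1.09 and 1.08, and F KSR4 had 0.73, with adjusted p of 0.13, 0.0993 and 0.305 (limma).

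Sall2 was the member that was lower. Against 3.68, 3.61 and 3.74 in TX 2i ESCs, F KSR2 had 2.27, 2.78 and 2.09 and M KSR3 had 2.07, 2.17 and 1.96, both wholly below, as were 17.9% and 22.9% of all genes in these lines. F KSR4 had 4.24, 2.63 and 3.19 and M KSR5 had 2.68, 3.44 and 4.14, on both sides of the TX 2i libraries. The log2 difference of -0.87 ± 0.31 was close to the threshold (adjusted p = 0.0475, limma) and was lost in 15 of 24 alternative fits. By line, F KSR2 differed by -1.30 ± 0.39 (adjusted p = 0.0344, limma) and M KSR3 by -1.61 ± 0.39 (0.00621), and F KSR4 and M KSR5 by -0.33 and -0.26 (0.622 and 0.713).

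The other 4 members did not pass when the KSR lines were pooled. Zic2 stood at 6.37, 5.56 and 6.01 and Zic5 at 6.17, 5.56 and 6.03 in TX 2i ESCs, and both differed from KSR-iPSCs by less than their spread. Their 95% intervals ran from -0.41 to 0.48 for Zic2 and from -0.47 to 0.51 for Zic5, on the log2 scale. Pou3f1, at 5.15, 4.99 and 4.77 in TX 2i ESCs, differed by -0.36 ± 0.34 (adjusted p = 0.496, limma; 95% interval -1.07 to 0.35). Foxd3, at 5.99, 4.75 and 5.71, differed by -0.78 ± 0.56 (adjusted p = 0.354, limma), and its interval of -1.97 to 0.41 leaves room for a difference as large as that of Otx2 in the other direction.

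**Figure D2:**
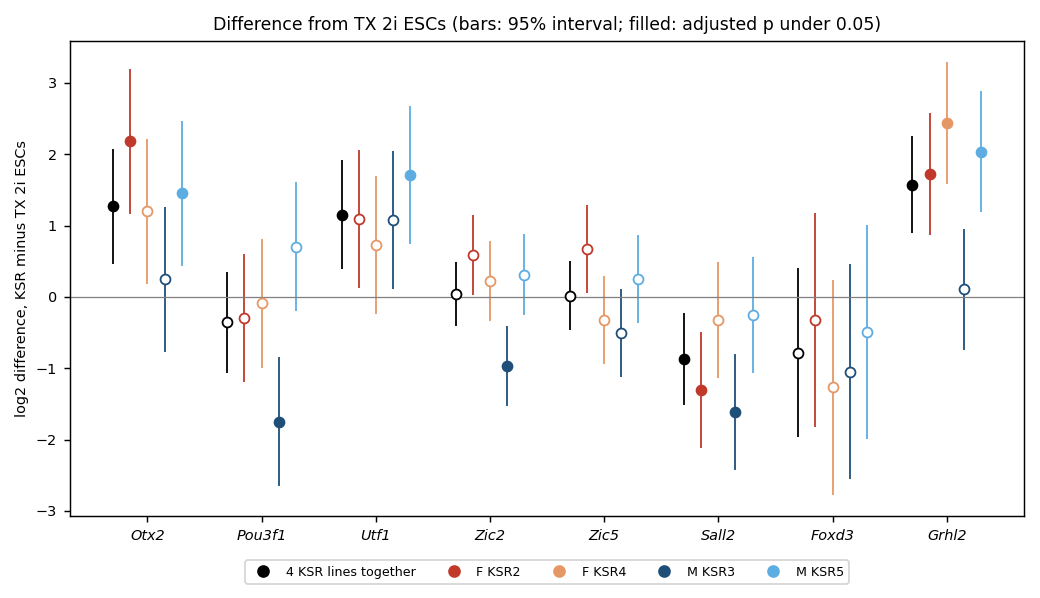
Log2 difference of each gene from TX 2i ESCs (y axis) for the 4 KSR lines pooled (black) and for each line (colours), with 95% intervals from limma and filled points where adjusted p was under 0.05. Grhl2 and Otx2 show M KSR3 near 0 beside higher lines, and for Pou3f1 and Zic2 the difference of M KSR3, below 0, is the only one by line that passed.

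The lines differed among themselves. In a test of any difference among the 4 KSR lines, 5 of the 8 members passed (Pou3f1, Zic2, Zic5, Sall2 and Grhl2), where 14.1% of all genes did. Otx2 just missed (adjusted p = 0.0536, limma), and Utf1 and Foxd3 did not pass (0.398 and 0.657). M KSR3 had the lowest mean of the 4 lines for 6 of the 8 members and the highest for none, while over all genes tested it was the lowest line for 24.8% and the highest for 35%.

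Pou3f1 had the widest gap. F KSR2 had 4.76, 4.44 and 4.83, F KSR4 had 5.75, 3.70 and 5.18, M KSR5 had 5.07, 6.09 and 5.86, and M KSR3 had 3.62, 3.11 and 2.93. M KSR3 was thus below every other KSR-iPSC library, and below TX 2i ESCs by 1.75 ± 0.43 (log2 difference -1.75; adjusted p = 0.00701, limma). M KSR5 exceeded M KSR3 by 2.45, or 5.48-fold, from the highest line to the lowest (adjusted p of the test among lines = 0.00574, limma). Between F KSR2, F KSR4 and M KSR5 no pair differed past the threshold for any of the 8 members, where 1.14% (F KSR2 and F KSR4), 2.82% (F KSR2 and M KSR5) and 2.34% (F KSR4 and M KSR5) of all genes did. M KSR3 differed from F KSR2 in 5 of the 8 (10.7% of all genes), from F KSR4 in 4 (13.1%) and from M KSR5 in 3 (4.48%).

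Zic2 also had M KSR3 as its lowest line. F KSR2 had 7.07, 5.97 and 6.68, F KSR4 had 6.25, 6.27 and 6.10, M KSR5 had 6.53, 5.97 and 6.38, and M KSR3 had 5.22, 4.64 and 5.17 (adjusted p among lines = 0.00333, limma). M KSR3 lay below TX 2i ESCs by 0.97 ± 0.27 (log2 difference -0.97; adjusted p = 0.0146, limma). F KSR2 differed from TX 2i ESCs by 0.59 ± 0.27 and did not pass (adjusted p = 0.164, limma), and passed with the replicate number as a block (0.59 ± 0.18, adjusted p = 0.045, limma). Zic5, the divergent neighbour, had 6.70, 6.53 and 6.55 in F KSR2. F KSR4 had 5.96, 4.98 and 5.83, M KSR5 had 6.44, 6.08 and 5.98, and M KSR3 had 5.77, 5.04 and 5.42 (adjusted p among lines = 0.0299, limma). Here F KSR2 was the high line, and M KSR3 and F KSR4 did not differ beyond their spread (difference 0.18, adjusted p = 0.723, limma).

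Grhl2 and Sall2 also differed among lines (adjusted p = 0.00386 and 0.0379, limma), from the values given above. Grhl2 was 5.03-fold higher in F KSR4 than in M KSR3. Sall2 split the lines differently, with F KSR4 and M KSR5 above F KSR2 and M KSR3. The calls of Pou3f1, Zic2 and Grhl2 held without any one KSR-iPSC library, whereas Zic5 lost its call without any one library of F KSR2 or without M KSR3 replicate 2 or 3 (adjusted p of 0.091 at most, limma), and Sall2 without F KSR2 replicate 1 or 3, M KSR5 replicate 2 or 3, or any library of M KSR3 (0.105 at most). Foxd3 varied more within lines than between them, with 6.42, 3.23 and 5.84 in F KSR2. The libraries of F KSR4 had 5.15, 2.78 and 4.71, those of M KSR3 had 3.53, 4.91 and 4.87, and those of M KSR5 had 4.20, 4.93 and 5.85.

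Markers of another lineage moved with M KSR3. The 4 primitive endoderm markers (Gata4, Gata6, Sox17 and Pdgfra) summed to 104 to 126 RPM in its libraries, against 9.38 to 36.1 RPM in the other KSR-iPSC libraries and 4.26 to 7.86 RPM in TX 2i ESCs, and all 4 had reads in every pluripotent group. Their part in the lower levels of M KSR3 was not tested. The neural markers summed to 45.9 to 74.7 RPM in M KSR3, within the range of the other pluripotent groups.

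Female and male KSR lines were also compared, with 2 lines of each sex. None of the 8 passed (limma on the 12 KSR-iPSC libraries), where 2.87% of all genes did. At so small a share, 0 of 8 does not show that the sexes were alike. An unadjusted p under 0.05 (limma) held for 2 of the 8, Zic2 and Grhl2, and for 2520 of 13609 genes tested. This fit had a mean per sex and took the libraries of a sex as independent, though each sex has only 2 lines. Its spread mixes differences within and between lines. Grhl2 was higher in female lines by 1.01 ± 0.45 (adjusted p = 0.245, limma), Otx2 by 0.84 ± 0.43 (0.31) and Zic2 by 0.74 ± 0.30 (0.194), and in each case M KSR3 was the low line and M KSR5 lay with the female lines. In the fit of all 18 libraries, Zic2 and Grhl2 passed (adjusted p = 0.0199 and 0.0327, limma), which rests on the spread within lines only.

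Reads over strain variants gave a second readout that the choice of genes did not use. Each library had 17.7% to 19.9% of its reads assigned to an allele, and the BL6 (maternal) share of a gene depends on which variants it holds and on how reads of each strain map. Over 9970 autosomal genes with at least 200 allelic reads in the 15 pluripotent libraries, the median share was 52.7%, and the 5th and 95th percentiles were 37.0% and 70.5%. Utf1 and Sall2 lay near the middle, at 47.5% and 53.4% of their summed reads, and Otx2 and Foxd3 lay at opposite ends.

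Otx2 was read mainly from the CAST allele. Its BL6 share was 22.4% of 2079 reads, and 1.21% of genes had a lower one. In TX 2i ESCs the shares were 4.69%, 2.5% and 2.9% (3 of 64, 1 of 40 and 2 of 69 reads, with upper 95% Wilson limits of 12.9%, 12.9% and 9.97%), below all 12 KSR-iPSC libraries. F KSR2, the line with the most Otx2, had 26.4%, 30.4% and 25.7%, and M KSR3, the line with the least, had 14.5%, 10.2% and 5.13%. F KSR4 replicate 2, low in Otx2, stood at 6.38% (3 of 47 reads) beside 32.0% and 26.9% in its sister libraries. The group means of the share were 3.36% (TX 2i ESCs), 9.94% (M KSR3), 20.5% (M KSR5), 21.8% (F KSR4) and 27.5% (F KSR2). The mean level gave the same order of the 5 groups, except that F KSR4 and M KSR5 changed places, and in level TX 2i ESCs and M KSR3, or F KSR4 and M KSR5, did not differ beyond their spread. The 39 expressed genes within 5 Mb of Otx2 had BL6 shares of 50.9% to 52.0% in each of the 5 groups. Intervals cover counting error only, since reads without molecular identifiers are not independent molecules.

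Foxd3 was read mainly from the BL6 allele, at 79.2% of 2648 reads, with 2.17% of genes having a higher share. The KSR-iPSC libraries had 80.1% to 100%, and TX 2i ESCs had 49.5%, 60.3% and 65.6%, below all of them. Here the neighbourhood moved too. The 22 expressed genes within 5 Mb of Foxd3 had a BL6 share of 27.0% in TX 2i ESCs (20.7% to 32.5% by library), against 49.6% to 50.1% in the KSR lines. The 71 genes around Pou3f1, also on chromosome 4, had 31.5% in TX 2i ESCs (27.0% to 37.3%) against 50.9% to 52.2%. Pou3f1 itself had 12.4% in TX 2i ESCs and 57.5% in M KSR5, from 19 to 74 reads per library. Over the whole of chromosome 4 the BL6 share was 32.2% in TX 2i ESCs, 43.3% in F KSR2 and 51.2% to 53.1% in the other KSR lines, so any comparison of Foxd3 or Pou3f1 with TX 2i ESCs was made against cells with unequal alleles of that chromosome. Their summed levels around the genes were close to those of KSR-iPSCs, with median log2 differences of the neighbours of 0.18 at Foxd3 and 0.01 at Pou3f1. The part of chromosome 4 in the levels of Foxd3 and Pou3f1 was not tested.

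None of the 40 pairs of gene and group passed an exact two-sided permutation test of the BL6 share of 1 group against the other pluripotent libraries after adjustment (smallest adjusted p = 0.0879), and 6 had an unadjusted p under 0.05. Otx2 and Foxd3 in TX 2i ESCs both reached the smallest p that 3 against 12 libraries allow (exact permutation p = 0.0044), and 4 pairs would have had to reach it to pass. The test took libraries as exchangeable, though those of a group share 1 line. Its p-values therefore do not measure the spread between lines.

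**Figure D3:**
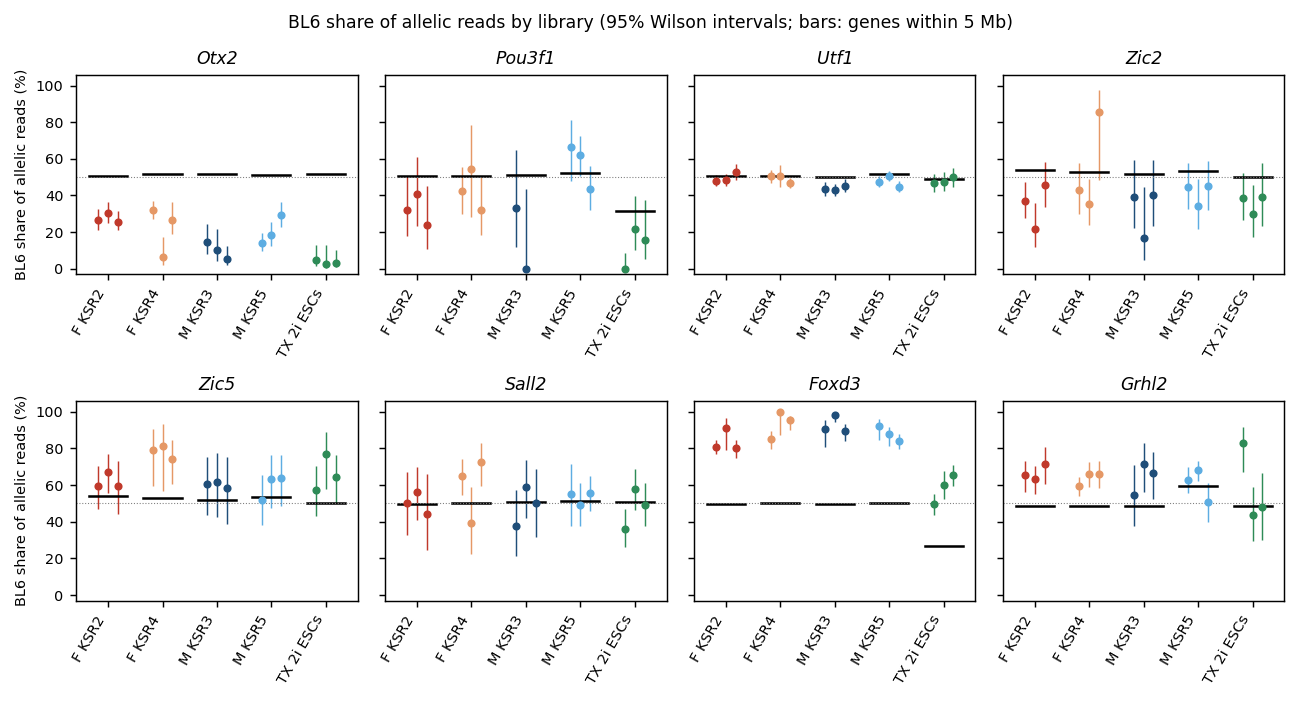
BL6 (maternal) share of allelic reads in percent (y axis) of each gene in the 15 pluripotent libraries, by group (x axis), with 95% Wilson intervals; horizontal bars give the share over expressed genes within 5 Mb. Otx2 lies far below its neighbours and Foxd3 far above, and the bars at Foxd3 and Pou3f1 drop in TX 2i ESCs. A Pou3f1 share from 4 reads in M KSR3 is not drawn.

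One other region differed by line. The 26 expressed genes within 5 Mb of Grhl2 on chromosome 15 were higher in M KSR5 than in the other KSR lines by a median of 0.41 (log2), with a BL6 share of 59.3% against 48.5% to 48.7% in the other KSR lines. This was the only one of 32 pairs of gene and KSR line past 0.3. M KSR5 had a Grhl2 level of 4.51 ± 0.87 (SD, n = 3), against 4.91 ± 0.74 in F KSR4 and 4.19 ± 0.22 in F KSR2, whose neighbourhoods stood at -0.24 and 0.08. The part of the region in the Grhl2 level of M KSR5 was not tested.

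The 8 genes did not move as 1 block among pluripotent libraries. Over the 28 pairs of members, Pearson's r across the 15 libraries ran from -0.19 (Foxd3 and Grhl2) to 0.77 (Pou3f1 and Sall2), with a median of 0.39, and 26 pairs were above 0. Otx2 and Zic5 (0.73), Zic2 and Zic5 (0.70) and Otx2 and Grhl2 (0.69) followed. The libraries of a line share their clone and medium, so these values describe the data and carry no test.

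Among 11559 other genes, those with the profile closest to each member over the 15 libraries were as follows. For Grhl2 it was Epcam, an epithelial adhesion molecule (r = 0.90), before Arhgap33 (0.89). Epcam had a mean of 7.02 in KSR-iPSCs and 6.16 in TX 2i ESCs. For Otx2 they were Mex3c (0.93) and Med14, a Mediator subunit (0.91). For Utf1 they were Enox1 (0.93) and Eny2 (0.92). For Pou3f1 they were Col18a1, a basement membrane collagen (0.90), and Sbds (0.89). For Zic5 they were Zswim5 (0.93) and Klf13 (0.91), for Zic2 Gnaq and Slc27a2 (0.86 and 0.86), for Foxd3 Trim8 and 2410016O06Rik (0.91 and 0.91), and for Sall2 Ccdc8 and Marveld1 (0.88 and 0.80). None of these 16 genes was a member.

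Other genes of the same transition were read from lists. Of 11 other formative genes, 4 were higher and 1 lower in KSR-iPSCs than in TX 2i ESCs, where 11% of all genes were higher and 12.0% lower, with a median difference of 0.61 against -0.0045 over all genes. Etv4, an ETS factor induced by FGF signalling, rose from 11 to 32 reads per TX 2i library to 691 to 5745 in KSR-iPSCs, a difference of 6.63 ± 0.34 (adjusted p = 3.96e-09, limma), with all 12 libraries above. Fgf5, the classic ligand of the early post-implantation epiblast, had 1 to 3 reads per TX 2i library and 0 to 198 in KSR-iPSCs (difference 4.15 ± 1.22, adjusted p = 0.0209, limma), and its mean level of 0.56 in KSR-iPSCs was below that of MEFs (1.75). Dnmt3a, a de novo DNA methyltransferase, was higher by 1.59 ± 0.26 (adjusted p = 0.000282, limma). Sox3, a SoxB1 factor of epiblast and neural cells on the X chromosome, was lower by 1.35 ± 0.32 (log2 difference -1.35; adjusted p = 0.00526, limma), with group means of 1.06 in M KSR3, 3.65 to 4.06 in the other KSR lines and 4.50 in TX 2i ESCs. The call of Fgf5 held in only 1 of the 3 fits without a TX 2i library.

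Of 10 genes of the primed state and gastrulation, 7 were expressed enough to test, and 2 were higher and 2 lower in KSR-iPSCs, beside 11% and 12.0% of all genes. Foxa2, a factor of endoderm and node, was higher at low reads (3 to 63 per KSR-iPSC library against 0 to 7; difference 3.23 ± 0.87, adjusted p = 0.0128, limma), and Sox11 was higher by 1.02 (0.0133). Gsc, an organiser gene, was lower, at 1 to 40 reads per KSR-iPSC library against 36 to 70 in TX 2i ESCs (difference -3.27 ± 0.58, adjusted p = 0.000655, limma), and Cdh2, N-cadherin, was lower by 1.61 (log2 difference -1.61; 0.0355).

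Of 14 naive genes, none passed as higher and 4 were lower in KSR-iPSCs, where 12.0% of all genes were lower, with a median of -0.63. Prdm14 differed by -1.89 ± 0.26 (adjusted p = 7.02e-05, limma), Nanog by -1.78 ± 0.30 (0.000382), Tfcp2l1 by -1.57 ± 0.31 (0.00157) and Fgf4 by -0.57 ± 0.19 (0.0352). All 12 KSR-iPSC libraries were below the TX 2i libraries for Prdm14, Nanog and Tfcp2l1. All 14 were nevertheless higher in KSR-iPSCs than in MEFs.

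Of 16 paralogs, 11 could be tested and 3 passed against TX 2i ESCs, where 23.0% of all genes did, with a median of 0.15. Sall3 was lower (-2.38 ± 0.77, adjusted p = 0.0332, limma), Foxd1 was lower (-2.11 ± 0.54, 0.00867), and Zic1 was higher at 0 to 26 reads per KSR-iPSC library against 0 to 1 (1.89 ± 0.55, 0.02). Grhl1 and Grhl3, the paralogs of Grhl2, differed by 0.58 and -0.56 and did not pass (0.102 and 0.144). Sall4, a pluripotency gene of the Sall family, differed by 0.33 and did not pass either.

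Epithelial genes, among which Grhl2 is known to act, included 4 that were higher and 1 that was lower among 9 tested of 10, where 23.0% of all genes passed, with a median of 0.86. Esrp1, a splicing factor of epithelial cells, was higher by 3.51 ± 0.34 (adjusted p = 2.55e-06, limma) with all 12 KSR-iPSC libraries above TX 2i ESCs. The claudins split, with Cldn7 higher by 1.92 ± 0.47 (adjusted p = 0.00721, limma), Cldn6 higher by 0.99 (0.0484) and Cldn3 lower by 2.76 ± 0.52 (log2 difference -2.76; 0.000959). Of these 9 genes, 6 also differed among the KSR lines, as did 14.1% of all genes.

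Markers of other cell types also moved in this comparison, in which 11% of all genes were higher. Of the 4 primitive endoderm markers 3 were higher in KSR-iPSCs (Gata6 by 3.98, Pdgfra by 3.88 and Gata4 by 2.1), and of 6 neural markers tested 3 were higher (Pax6 by 4.20, Neurod1 by 3.26 and Sox1 by 1.05). Of the 12 fibroblast markers 4 were higher (among them Col3a1 and Dcn, both with 0 reads in TX 2i ESCs) and 1, Thy1, was lower. Of 3 neural crest markers tested Tfap2a was lower, and of 3 trophoblast markers tested none passed (limma). In M KSR3, which had the most primitive endoderm RNA, Otx2 was at 4.30 ± 0.50 (SD, n = 3), the lowest of the KSR lines. Otx2 is itself expressed in visceral endoderm and neural tissue, and the part of such cells in its level was not tested in any line.

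**Figure D4:**
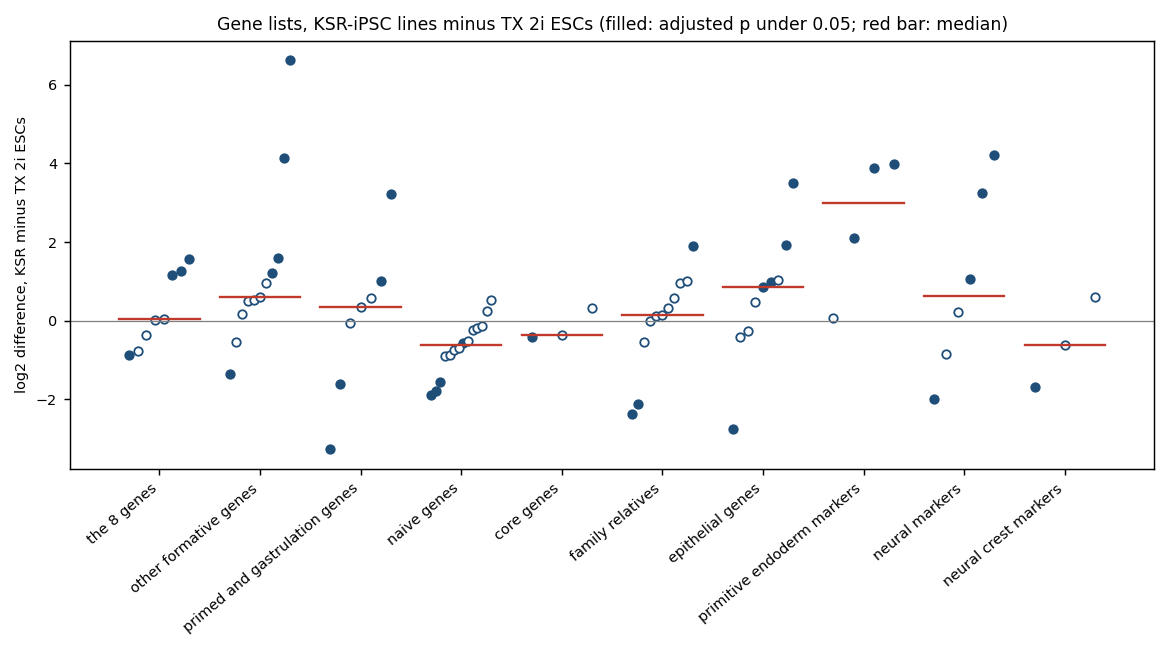
Log2 difference between KSR-iPSC lines and TX 2i ESCs (y axis) for the genes of each list drawn (x axis), with filled points where adjusted p was under 0.05 (limma) and a red bar at the list's median. The fibroblast and trophoblast markers are not drawn. Naive genes that passed all lie below 0, and the other lists hold genes on both sides or on 1 side with few members.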

How the data were processed

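RNA-seq was done on 18 libraries, 3 for each of 6 groups. Per the paper's methods and the submitters' processing notes, the authors trimmed reads with Trim Galore 0.6.1, aligned them to GRCm38 with HISAT2 2.1.0 and quantified genes in SeqMonk by strand. The deposited values are log2 RPM (reads scaled by library total), with 0 reads held at 0.9 read, for all reads and for reads assigned to BL6 or CAST; the 18 columns of unassigned reads were not used. Antilogs gave whole reads for at least 99.97% of values (within 0.05 of a read). The other 82 samples of the series were not analysed here.

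Genes were kept where 3 or more libraries exceeded 0 on the log2 scale. The fits had a mean per group, or a mean per sex in the main test between the sexes. Tests used limma 3.58.1 (trend, R 4.3.3) on the deposited log2 values, adjusted by Benjamini-Hochberg over all genes at 0.05. The test was run on simulated libraries with 200 changed genes, drawn independently at a dispersion of 0.05. These held no added spread between lines, so that spread was not checked. BL6 shares used at least 5 allelic reads and an exact two-sided permutation test (scipy 1.17.1). Exon lengths came from GENCODE M21 and promoters from RefSeq. For each list up to 4 genes with the largest differences past the threshold against TX 2i ESCs were named, and for each member the 2 genes closest by Pearson's r. The members and lists were chosen with earlier results of these data known. Alternatives were other pseudocounts, filters and scaling, voom, a replicate block (all 3 same-numbered pairs of F KSR2 or F KSR4 with TX 2i ESCs correlated above 0.1, with r of 0.29 to 0.46 and 0.24 to 0.52, and those of no other pair of groups did), line means, female lines only, each library left out, at least 10 allelic reads and 10 Mb windows.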

Additional observations from a re-analysis of the deposited data

Results flagged for a closer look

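Among the 6 female KSR-iPSC libraries, Grhl2 in F KSR4 replicate 1 stood at 5.76 (log2 RPM), farther from the other 5 than the 95% Dixon limit allows (gap over range 0.689, limit 0.625); 1 of 16 such groups was flagged, and chance flags about 1 in 20.

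The difference from TX 2i ESCs itself differed across the 4 KSR lines, by the limma test among lines, for Pou3f1 (adjusted p = 0.00574), Zic2 (adjusted p = 0.00333), Grhl2 (adjusted p = 0.00386), Zic5 (adjusted p = 0.0299) and Sall2 (adjusted p = 0.0379). The TX 2i mean cancels in this test, so these are the p-values among lines given above and not a further result.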

How the results depend on the processing

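Against TX 2i ESCs, the 4 members that passed became 2 with no filter on low values (Otx2 and Grhl2), 2 with female lines only (Otx2 and Grhl2) and 0 with line means as the unit. Leaving out each library in turn gave 1 to 4, with 1 (Grhl2) without TX 2i replicate 1 or 2. Among the lines the 5 became 3 with no filter and 3 to 6 with a library left out. Between the sexes the 0 became 2 in the fit of all 18 libraries and 1 (Otx2) without F KSR4 replicate 2 and M KSR5 replicate 3, an alternative chosen after seeing the data. The count against MEFs stayed at 8 for KSR-iPSCs and 7 for TX 2i ESCs without any one library. Differences that changed sign had not passed the test. Against TX 2i ESCs, Zic2 ran from -0.17 to 0.23 and Zic5 from -0.16 to 0.14 with a library left out. Between the sexes, Sall2 ran from -0.15 to 0.40 and Foxd3 from -0.37 to 0.36 with a library left out, and Foxd3 was 0.076 under median-of-ratios scaling and 0.58 without both libraries. That scaling shifted MEF libraries by 0.14 to 0.16 and F KSR4 replicate 2 by 0.24 (log2). Beyond fewer genes or samples entering, the cause was not tested. Over all genes tested, 3372 passed against TX 2i ESCs, 2125 to 2154 without a TX 2i library and 42 with line means. Among lines 2070 passed, and 995 (without M KSR3 replicate 3) to 3947 (without F KSR4 replicate 1) with a library left out. Between the sexes 390 passed, 187 (without M KSR3 replicate 3) to 521 (without M KSR5 replicate 3) with a library left out, 232 with no filter, 665 without both libraries and 1523 in the fit of all 18. With a replicate block, the members' counts were 3 against TX 2i ESCs (Sall2 lost), 8 and 7 against MEFs, 5 among lines (Otx2 for Sall2) and 0 between the sexes. Same-numbered libraries did not deviate together throughout (r of -0.31 to 0.59 over 45 pairs, 22 of them over 0.1). In F KSR2 and F KSR4 against TX 2i ESCs they did. By line, the block there changed the call of Zic2 in F KSR2, to passed, and no other member's. Both lines also enter the pooled comparison with TX 2i ESCs, so its libraries may share more than a number. The BL6 shares and the neighbourhoods gave the same counts. Under median-of-ratios scaling, the naive genes that passed against TX 2i ESCs went from 4 to 3. The epithelial genes that differed among lines went from 6 to 7. For the members, the count among lines went from 5 to 6, and that of TX 2i ESCs against MEFs from 7 to 8. The other list counts stayed the same under that scaling. Depth limits the BL6 shares of Pou3f1 and Zic2, with as few as 4 and 7 allelic reads in a library.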
